A study of Mus musculus with 30 samples.

Results

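Interferon-stimulated genes were examined in mouse natural killer (NK) cells sorted after skin transplantation. The group holds 37 genes of 30587 in the deposited table; they were listed by symbol as genes that interferon is known to induce, and all 37 were found. RNA sequencing covered 30 libraries in 10 groups of 3, from 2 transplant models. In the B6 model, skin of m157tg B2m-/- donors was placed on C57BL/6 recipients of genotype NKp46iCre/iCre.RosamTmG/mTmG, and cells were sorted at day 20. In the F1 model, skin of m157tg B2m+/- donors was placed on C57BL/6xBalb/c recipients of genotype NKp46+/iCre.Rosa+/mTmG, and cells were sorted at day 10. Each model gave CD49b+ cells from blood, spleen and the graft, and CD49a+ cells from the graft and from the recipient's own skin; CD49b marks conventional and CD49a tissue-resident NK cells. Every sorted cell was NKp46-GFP+: the Cre recombinase is expressed from the locus of NKp46 (Ncr1) and switches the mTmG reporter to green fluorescence. All recipients therefore carried a graft and the iCre knock-in, on both alleles in the B6 model and on 1 in the F1 model, and no group used here came from untransplanted mice. The models also differ in strain, day and B2m genotype of the graft, so these differences cannot be told apart. The labels do not say whether same-numbered libraries share an animal, or whether animals were pooled, and p-values then measure only the spread between these samples, which may be technical.

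Type I interferons signal through the receptor IFNAR1/IFNAR2 and the kinases JAK1 and TYK2 to a transcription factor complex that includes STAT2 and IRF9. This complex binds the interferon-stimulated response element (ISRE) in the promoters of genes that sense viral RNA, block its translation or degrade it. Interferon-gamma acts through a separate receptor and leads to binding at the gamma-activated site (GAS), and several of the genes respond to both. In NK cells, type I interferon is known as an activator of cytotoxicity, and NK cells themselves are a source of interferon-gamma.

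Promoter sequences show what many of these genes share. RefSeq promoters (GRCm38.p6, from 250 bases before to 50 after the start) were held for 28 of the 37 genes and not for Usp18, Oas2, Dhx58, Mx1, Zbp1, Parp9, Parp14, Rtp4 and Ifi27l2a. The ISRE core GAAANNGAAA, searched on both strands, was found in 13 of the 28 (46.4%), against 3.99% of 27025 genes with a promoter in the table and 3.9% of those tested here. The GAS core TTCNNNGAA was found in 7 of 28 (25%), against 9.55% of all; 1 ISRE match overlapped a GAS match. A match is a description of the letters and not a site of binding. The stretches below belong to 5 genes picked among those that passed in a comparison and have a match. Each runs 5′ to 3′ on the gene's strand, with the ISRE matches in capitals.
Ifit1 (chr19:34640765-34640833, plus strand, from 124 to 56 bases before the start): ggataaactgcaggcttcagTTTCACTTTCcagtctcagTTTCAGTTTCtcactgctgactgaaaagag
Isg15 (chr4:156200855-156200916, minus strand, from 98 to 37 bases before the start): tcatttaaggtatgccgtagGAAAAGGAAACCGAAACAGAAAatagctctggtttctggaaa
Oas1a (chr5:120907526-120907565, minus strand, from 40 to 1 bases before the start): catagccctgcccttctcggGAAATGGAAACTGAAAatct
Rsad2 (chr12:26456543-26456592, minus strand, from 140 to 91 bases before the start): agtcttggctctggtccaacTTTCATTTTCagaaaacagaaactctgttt
Cxcl10 (chr5:92349073-92349122, minus strand, from 233 to 184 bases before the start): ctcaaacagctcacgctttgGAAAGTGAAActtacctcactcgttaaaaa
Ifit1 holds 2 separate matches, and Isg15 3 and Oas1a 2 that overlap one another. Eif2ak2, another gene that several comparisons single out, also has a match, which lies past the start and is not shown. Isg20, Epsti1, Ifi35, Irf7 and Ifit2 also passed in a comparison, and their promoters hold no match.

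The values are normalized signal, which the authors made with DESeq2; depth is unknown. Per library the values summed to 3502576 to 5717946 in blood and spleen (12 libraries, called circulating here) and to 1529124 to 3988756 in graft and recipient skin (18 libraries), and satellite-like predicted genes held 18.6 to 85.1 percent. The level of 20 pan-leukocyte genes, as a percentage of the circulating median, was 90.2 to 108 in circulating and 9.73 to 89.9 in skin libraries. It was more than 2 log2 units below that median in 6: B6 graft CD49a libraries 1 and 3, B6 recipient skin libraries 1 and 3, and F1 recipient skin libraries 2 and 3. The summed signal of 7 NK markers was 11144 to 14364 in circulating groups, 3483 to 13798 in graft CD49b+ cells, 272 to 7156 in graft CD49a+ cells and 235 to 2708 in recipient skin, so several CD49a libraries held a low sum. Group means of Ncr1, the gene of the sorted NKp46 itself, were 364 to 946 in blood and spleen but 14.7 to 66.3 across the skin groups. In bulk samples, fewer cells of a type and less RNA per cell cannot be told apart.

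In blood and spleen the genes were at modest and even levels. Divided by the exon length of each gene (GENCODE M21), the highest median signal per kilobase over the 12 circulating libraries was that of Epsti1, 62.2, a gene induced by interferon and by stromal contact. Next came Lgals3bp, a secreted galectin ligand, at 60.4, the nuclear body protein gene Sp100 at 44.2 and Ifi35 at 34.5. Cxcl10, the chemokine that draws CXCR3+ lymphocytes, and Oas2 had a median of 0, and Oasl2 and Rsad2 medians of 0.193 and 0.229. The order differed in skin: by the median over its 18 libraries Eif2ak2, the RNA-activated kinase PKR that halts translation, led at 90.5 per kilobase, followed by Lgals3bp at 68.2, the ubiquitin-like Isg15 at 31.7 and the virion tether Bst2 at 31.2. Between the 4 circulating groups the mean per kilobase was 48.6 to 80.2 for Epsti1 and 55.8 to 64.7 for Lgals3bp, so these neighbours overlapped, while Sp100 at 39 to 47.2 and Ifi35 at 32.4 to 36.8 did not. Between the 6 skin groups the mean was 72.2 to 112 for Eif2ak2 and 63.9 to 113 for Lgals3bp, with Lgals3bp the higher in B6 graft CD49b+ (93.5 against 85.8), B6 graft CD49a+ (113 against 73) and F1 graft CD49b+ cells (75.4 against 72.2). Ifit1 at 120 had the highest mean in B6 graft CD49b+ cells and Ifi27l2a at 134 in B6 graft CD49a+ cells.

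The spread between libraries was wider in skin. The median within-group SD of log2(signal + 1) over the 37 genes was 0.33 to 0.42 in the 4 circulating groups, 0.55 to 0.77 in the 4 graft groups, 1.47 in B6 recipient skin and 1.26 in F1 recipient skin. It was near that of the 16045 genes tested, which was 0.32 to 0.41, 0.64 to 0.95, 1.35 and 1.17. Between 21 and 26 of the 37 genes had a signal of at least 10 in each circulating library, 26 to 34 in graft CD49b libraries, 31 to 33 in B6 graft CD49a, 29 to 33 in F1 graft CD49a, 20 to 23 in B6 recipient skin and 18 to 34 in F1 recipient skin. For 34 genes the library with the highest value was a skin library. The exceptions were Sp100 and Epsti1, highest in B6 blood library 1, and Parp9, highest in F1 spleen library 3. Skin gave 18 of the 30 libraries and the wider spread, and the share of all genes highest in a skin library was not counted.

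**Figure D1:**
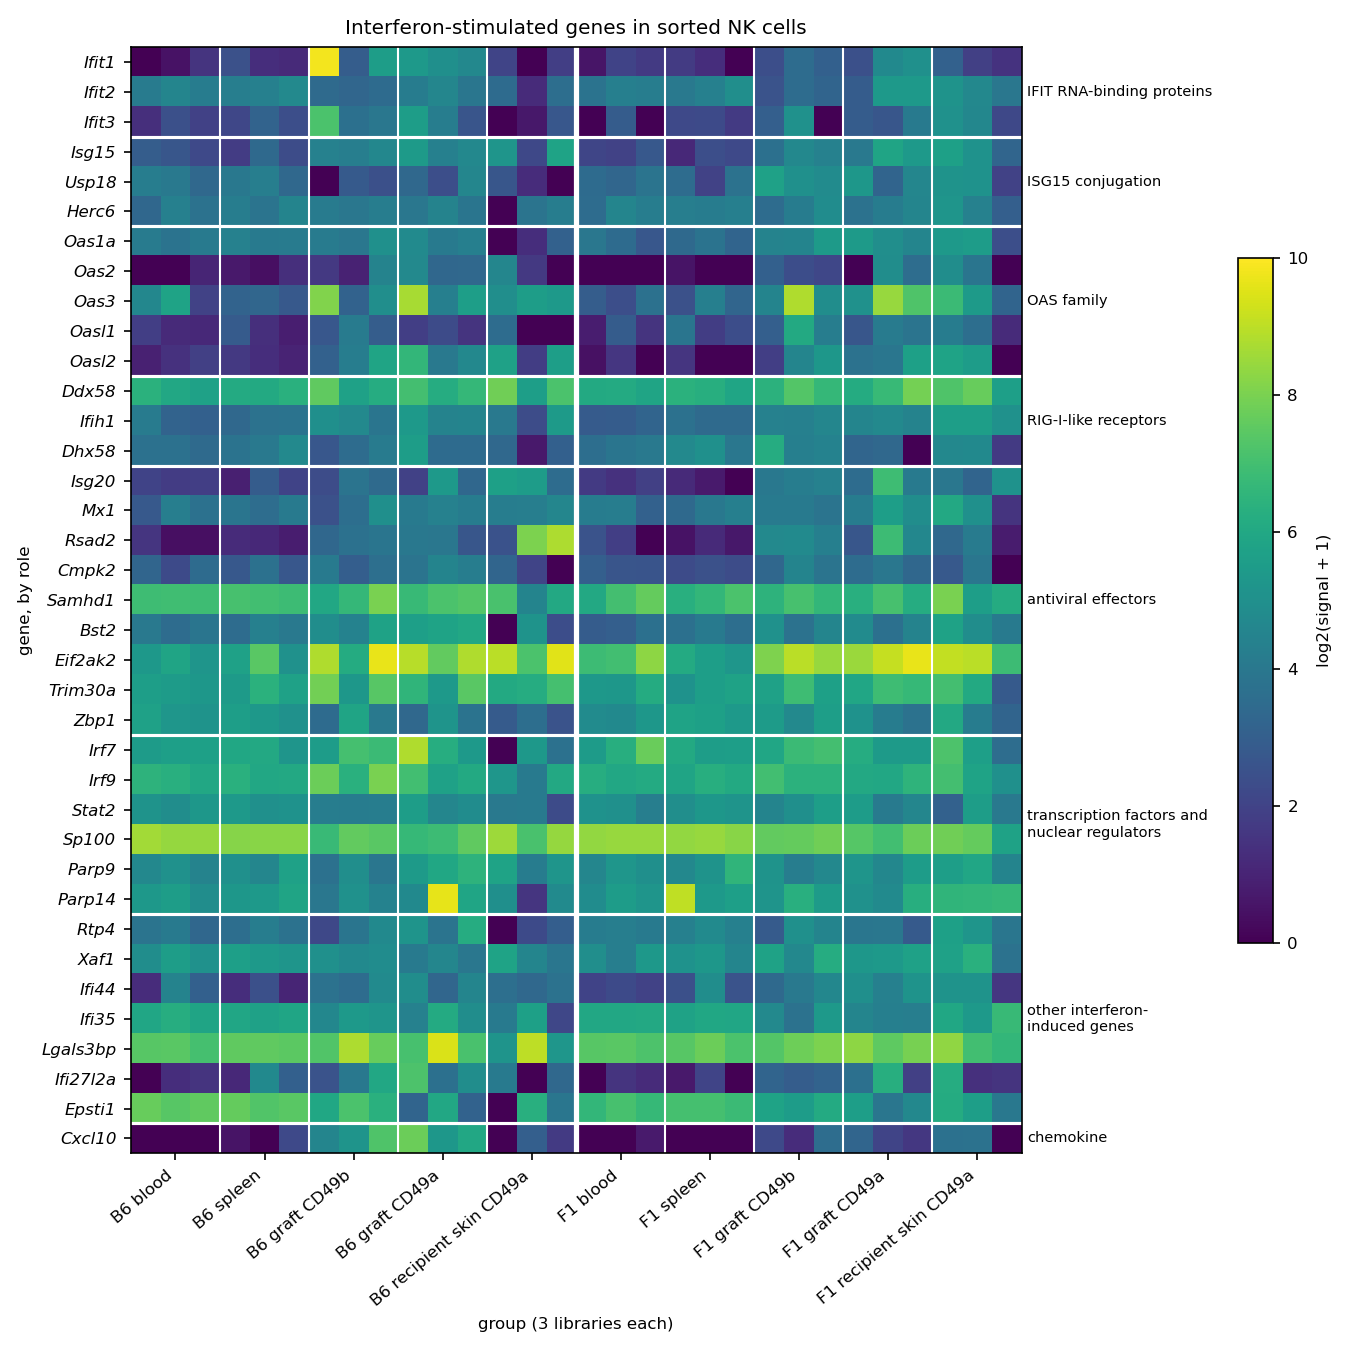
Signal of the 37 genes (rows, by role) in 30 libraries (columns, 3 per group) as log2(signal + 1). The libraries of a circulating group resemble one another, while single skin libraries stand out, such as Ifit1 at 906 in B6 graft CD49b library 1.

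Single libraries set the top of several ranges. The sensor of short RNAs Ddx58 (RIG-I) ran from 52.3 through a median of 67 to 83.3 in circulating and from 48.2 through 103 to 237 in skin libraries. Parp14, an ADP-ribosyltransferase, was at 28.3 to 533 (median 40.2) in circulating libraries and 1.91 to 798 (median 33.6) in skin. Its 533 was F1 spleen library 1 and its 798 B6 graft CD49a library 2; the other spleen and graft libraries were at or below 77.9. Irf7, the interferon-induced factor that amplifies type I interferon, was highest at 452 in B6 graft CD49a library 1, with skin and circulating medians of 54.7 and 49.2. The restriction factor Samhd1, with medians of 119 and 98.6, and Irf9, with 67.9 and 73.4, were close in both kinds of library. Trim30a, a member of a TRIM cluster, had medians of 45.6 in circulating and 81.8 in skin libraries. Oas1a, Ifit1, Ifit3, Trim30a and Ifi27l2a have close relatives in the mouse genome, among which quantification can divide reads, so their values are uncertain to that extent.

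In B6 CD49b+ graft cells, 2 genes rose against spleen: the chemokine gene Cxcl10 and the RNA-binding Ifit1. Cxcl10 was at 22.7, 34.7 and 149 in graft libraries 1 to 3 and at 0.436, 0 and 3.57 in spleen. Ifit1, whose protein binds viral 5′ RNA ends, was at 906, 6.69 and 46.7 in the graft and 4.55, 1.46 and 1.28 in spleen. For both genes every graft library was above every spleen library, and 1 graft library held most of the signal. On the log2(signal + 1) scale, which understates changes of low genes, Cxcl10 rose by 4.75 ± 0.99 (SE; adjusted p = 0.0101, limma) and Ifit1 by 4.46 ± 1.10 (adjusted p = 0.0226). The other 35 genes did not pass, and 11 of the 37 had an unadjusted p under 0.05. The share of all genes with an unadjusted p under 0.05 was not counted, here or in the other comparisons. Counts of the 37 by that measure therefore cannot show whether they exceed other genes. Among all 16045 genes tested, 4.07% were called, against 2 of 37 here, and the median change of the 37 was 0.52 beside 0.33 for all.

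Further B6 values fell in both directions without passing. The groups did not overlap for 17 of the 37 genes, 9 higher and 8 lower in the graft, where 21.9% of all genes tested were higher and 12.8% lower without overlap. Ifi44 was at 16.7 ± 8.71 in graft and 2.34 ± 1.85 in spleen (mean ± SD, n = 3; adjusted p = 0.102, limma), and Isg15 at 20.8 ± 2.66 and 5.37 ± 3.83 (adjusted p = 0.142). Usp18, the protease that removes ISG15 and damps the interferon receptor, was at 0, 6.06 and 4.44 in the graft and 14.9, 18.2 and 9.5 in spleen (adjusted p = 0.155). All 3 of these genes kept their groups apart, Usp18 in the opposite direction to the other two. By role, the 5 OAS family genes, which make the second messenger that activates RNase L or are related to those enzymes, all had positive changes with a median of 1.59, while 4 of the 6 transcription factors and nuclear regulators had negative ones, median -0.91; 0 of these 11 passed by limma's test, and 3 of them, Oasl2, Irf9 and Sp100, had an unadjusted p under 0.05.

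Both B6 calls depended on single libraries and on the scale. The Ifit1 call was lost in 5 of 6 fits that left out 1 library (adjusted p from 9.99e-04 to 0.231), passing only without graft library 2. The Cxcl10 call was lost without spleen library 1 or graft library 3, and neither passed when libraries were scaled to the pan-leukocyte genes. Keratinocyte markers summed to 194 to 1461 in these graft libraries and 8.57 to 15.5 in spleen, with 7 of 10 at a mean of at least 10 in the graft and Lor at 0. Fibroblast markers summed to 186 to 2309 and 5.85 to 121, with 8 of 9 at that mean. Macrophage markers were lower, 252 to 496 against 619 to 659, with 6 of 12 at that mean. The part of these cells in the changes was not tested.

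In F1 CD49b+ graft cells, 4 genes rose against spleen and 0 fell: Isg20, Eif2ak2, Rsad2 and Isg15. Isg20, an exonuclease of single-stranded RNA, was at 15, 17.9 and 20 in the graft and 1.26, 0.638 and 0 in spleen. Rsad2 (viperin), which makes a chain-terminating nucleotide, was at 24.9, 26.3 and 18.9 in the graft and 0.391, 1.26 and 0.547 in spleen. Eif2ak2 was at 269, 492 and 347 against 69, 47.3 and 36.9. In each of these genes all 3 graft libraries were above all 3 spleen libraries, and for Isg20 and Rsad2 they were close to one another.

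The fitted changes were 3.58 ± 0.87 on the log2 scale for Isg20 (adjusted p = 0.00919, limma), 2.83 ± 0.76 for Eif2ak2 (adjusted p = 0.0169), 3.83 ± 1.15 for Rsad2 (adjusted p = 0.0302) and 2.33 ± 0.77 for Isg15 (adjusted p = 0.0457). Isg15 was at 18.7 ± 6.34 in graft and 3.02 ± 1.61 in spleen. Of all genes tested 12.2% were called, beside 4 of 37 here, so the share is close to the background. The median change of the 37 was 0.65 and that of all genes 0.26. An unadjusted p under 0.05 was found for 10 of the 37, a share not counted for all genes. Groups did not overlap for 16 genes that were higher and 4 that were lower in the graft, where 29.3% and 17.1% of all genes tested did the same. Among the 16 was Oas1a at 21.5, 21.7 and 42.7 against 9.74, 13.2 and 8.4. Oasl2 was next by p, at 21.1 ± 17.8 in the graft and 0.633 ± 1.10 in spleen (adjusted p = 0.0676), and Cxcl10 was at 3.63, 1.4 and 10.9 in the graft and listed at 0 in all 3 spleen libraries.

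The Isg20 call held in 6 of 6 fits that left out 1 library (adjusted p from 0.0231 to 0.0478), that of Eif2ak2 in 4 of 6, and those of Rsad2 and Isg15 in 0 of 6. With a pseudocount of 5, Isg20, Rsad2 and Isg15 did not pass. In F1 graft libraries keratinocyte markers summed to 19.6 to 122 against 6.08 to 8.12 in spleen, fibroblast markers to 42.2 to 201 against 1.26 to 180, and macrophage markers to 165 to 442 against 436 to 709, with 2 of 10, 4 of 9 and 8 of 12 markers at a mean of at least 10. The neutrophil markers summed to 230 to 893 against 14.4 to 18.9, with 5 of 9 at a mean of at least 10 and Camp at 0. Most of that sum was Cxcr2, with a mean of 414 in the graft, 11.4 in F1 spleen and 169 in F1 blood. S100a9 was next in the graft at 42.8, and Ly6g and Ngp were at 1.57 and 0.758. The part of these cells was not tested.

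**Figure D2:**
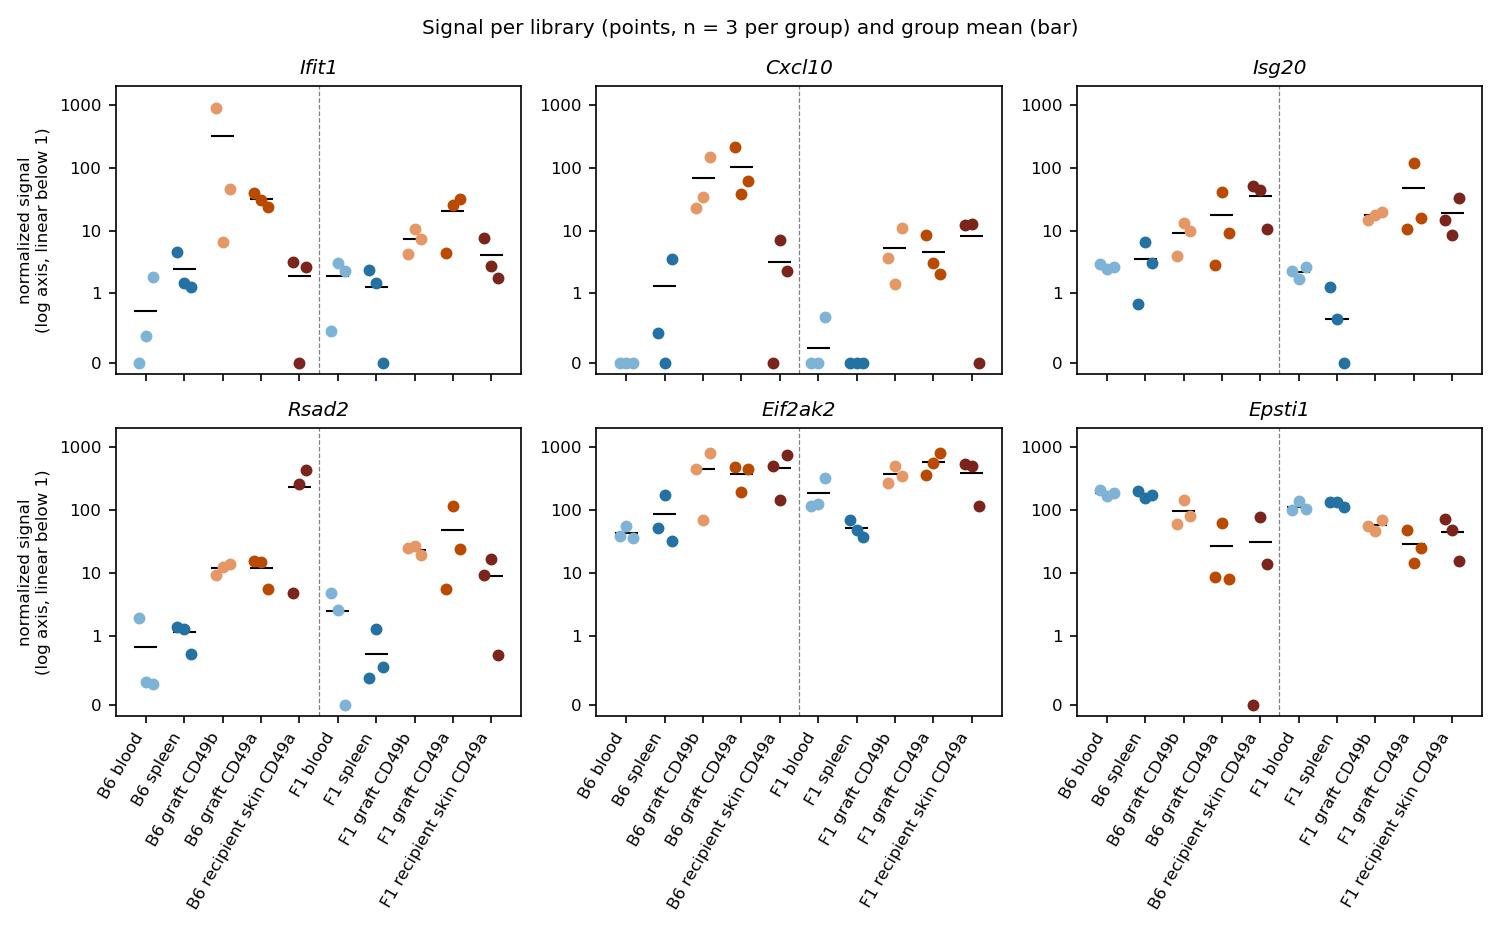
Normalized signal (log axis, linear below 1) of 6 genes in each library, with points for libraries (n = 3 per group) and bars for group means. Ifit1 reaches 906 in 1 B6 graft CD49b library, Cxcl10 is at 22.7 or more in all 6 B6 graft libraries, Isg20 and Rsad2 are tight in F1 graft CD49b+ cells (15 to 20 and 18.9 to 26.3), and the group means of Epsti1 are highest in blood and spleen.

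The graft to spleen difference was also compared between the models. By limma's test of that interaction, 0 of the 37 genes and 0% of the 16045 tested passed, and 1 of the 37, Usp18, had an unadjusted p under 0.05. Usp18 was at 51.6, 31.2 and 27.1 in F1 graft CD49b+ cells and 10.6, 2.92 and 12.5 in F1 spleen, and all 3 F1 graft libraries were above the spleen ones, where all 3 B6 graft libraries had been below theirs. Its change was 4.22 ± 1.23 log2 units higher in F1 (unadjusted p = 0.002, adjusted p = 1). Compared directly between graft CD49b+ cells of the models, 0 of 37 genes passed and 0.0329% of 15201 did; 3 of the 37 had an unadjusted p under 0.05. Those were Usp18 (36.6 ± 13.1 in F1 and 3.5 ± 3.14 in B6, adjusted p = 0.813), Cxcl10 (5.31 ± 4.96 and 68.8 ± 69.8, adjusted p = 1) and Ifit1 (7.4 ± 3.17 and 320 ± 508, adjusted p = 1). For Cxcl10 the lowest B6 library, at 22.7, was above the highest F1 library, at 10.9.

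CD49a+ cells of B6 recipient skin showed the most calls, in both directions: 3 genes rose against spleen and 9 fell, where 28.8% of all genes tested were called, a share near that of the 37. Rsad2 was at 4.68, 260 and 436 in skin and 1.37, 1.25 and 0.734 in spleen, and rose by 5.37 ± 1.15 log2 units (adjusted p = 0.00191, limma). Isg20 was at 50.8, 44.7 and 10.6 against 0.845, 6.5 and 3.07 and rose by 2.98 ± 0.87 (adjusted p = 0.0135). Eif2ak2 was at 497, 143 and 742 against 51.1, 172 and 32.5, so its groups overlapped, and rose by 2.48 ± 0.76 (adjusted p = 0.0171). The other two kept skin above spleen in every library. The rise of Rsad2 passed in all 6 fits that left out 1 library, with adjusted p up to 0.0219, and under all 7 other settings it could be fitted in.

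The 9 genes that fell were Epsti1, Oas1a, the nucleic acid sensor Zbp1, Ifi35, Stat2, Usp18, Irf7, the chaperone of surface receptors Rtp4, and Ifit2. Epsti1 was at 0, 77.6 and 14 in skin and 200, 153 and 175 in spleen, and fell by 4.06 ± 0.92 log2 units (adjusted p = 0.00284). Oas1a was at 0, 1.45 and 7.58 against 20, 16.6 and 17.1 and fell by 2.77 ± 0.72 (adjusted p = 0.00671). Zbp1 was at 6.32, 11.2 and 4.84 against 47.2, 39.5 and 32.5 and fell by 2.32 ± 0.64 (adjusted p = 0.00979). Skin lay below spleen in every library for these 3 genes. Stat2, a subunit of the interferon-activated complex, fell by 1.68 ± 0.57 (adjusted p = 0.0296), and Irf7 by 2.72 ± 0.96 (adjusted p = 0.0354) with overlapping groups.

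The direction of the B6 recipient skin calls depended on the scale. Scaled to the pan-leukocyte genes, 11 of the 37 rose and 1, Epsti1, fell, in place of 3 and 9, where 37.2% of all genes were called, a share near that of the 37. Stat2 turned to 0.19 (adjusted p = 0.878). On that scale the all-gene median was 2.05 log2 units, in place of 0.40. The median of the 37 relative to all genes was -1.06 on the deposited values (-0.67 against 0.40), -1.08 on the leukocyte scale and -1.14 after quantile normalization. Recipient skin library 2, at 70 percent of the circulating leukocyte level, was the only one not among the low-leukocyte libraries. With it alone, the median change of the 37 was -0.91 beside 0.11 for all genes. Of the 9 genes that fell, Ifi35 was at 50.4 in that library, near spleen (51.2 to 58.7), and Irf7 at 39.1, within spleen (36.4 to 64.1). The others that fell were below every spleen library there. A single library cannot show which of these changes hold. Macrophage markers summed to 151 to 301 in skin and 619 to 659 in spleen and keratinocyte markers to 33.5 to 534 against 8.57 to 15.5, with 6 of 12 and 6 of 10 at a mean of at least 10 and C1qa, C1qc, Krt79 and Lor at 0. Their part was not tested.

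In F1 recipient skin, 4 genes rose against spleen and 0 fell, where 15.7% of all genes were called. Isg20 was at 14.7, 8.46 and 33.3 in skin (3.48 ± 0.87 log2 units above spleen, adjusted p = 0.00872, limma), and Isg15 at 50.2, 33.6 and 8.7 (2.78 ± 0.77, adjusted p = 0.0158). Eif2ak2 had a mean of 384 ± 235 (SD, n = 3; 2.64 ± 0.76 log2 units above spleen, adjusted p = 0.0191). Ifih1 (MDA5), the sensor of long double-stranded RNA, was at 47.2, 48.1 and 31.9 in skin and 12.2, 9.88 and 10.1 in spleen (1.87 ± 0.58, adjusted p = 0.0292). In each of these genes every skin library was above every spleen library. The median of the 37 was 0.33 and that of all genes 0.35, and 8 of the 37 had an unadjusted p under 0.05.

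F1 recipient skin library 3 stood apart from the other two. Its leukocyte level was 9.73 percent of the circulating median, and its median over the 37 genes was 3.28 on the log2 scale, against 5.68 and 5.22 in libraries 1 and 2. Mx1, the dynamin-like GTPase that traps viral nucleocapsids, was at 63.9, 31.7 and 1.81 in libraries 1 to 3, and Oas1a at 41.9, 45.6 and 4.27. Without library 3, 8 genes passed, all higher in skin, where 28.2% of all genes were called. Without both low-leukocyte libraries 2 and 3, library 1 alone gave a median change of the 37 of 1.51 beside 0.12 for all genes. On the leukocyte scale, which put the all-gene median at 2.25, 24 of the 37 were higher where 41.5% of all genes were called. Macrophage markers summed to 6500, 166 and 24.3 in libraries 1 to 3, against 436 to 709 in spleen. Library 1 was also the library with the highest median over the 37 genes. In skin 9 of 12 were at a mean of at least 10 and C1qa and C1qb at 0. Lyz2 had the highest mean, 1871, with Csf1r next at 120. Dendritic cell and MHC class II markers summed to 1377, 1522 and 51.3, against 279 to 323 in spleen (6 of 8 at a mean of at least 10). Of these only Itgax had a lower mean in skin, 38.7 against 259. Keratinocyte markers summed to 70.8 to 1994 against 6.08 to 8.12 (6 of 10 at a mean of at least 10), endothelial markers to 48.1 to 1182 against 54.3 to 75.4 (7 of 8) and neutrophil markers to 59.2 to 341 against 14.4 to 18.9 (2 of 9, Camp at 0). Cxcr2, with a mean of 159 in skin, was the highest of the neutrophil markers. The part of these cells was not tested.

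**Figure D3:**
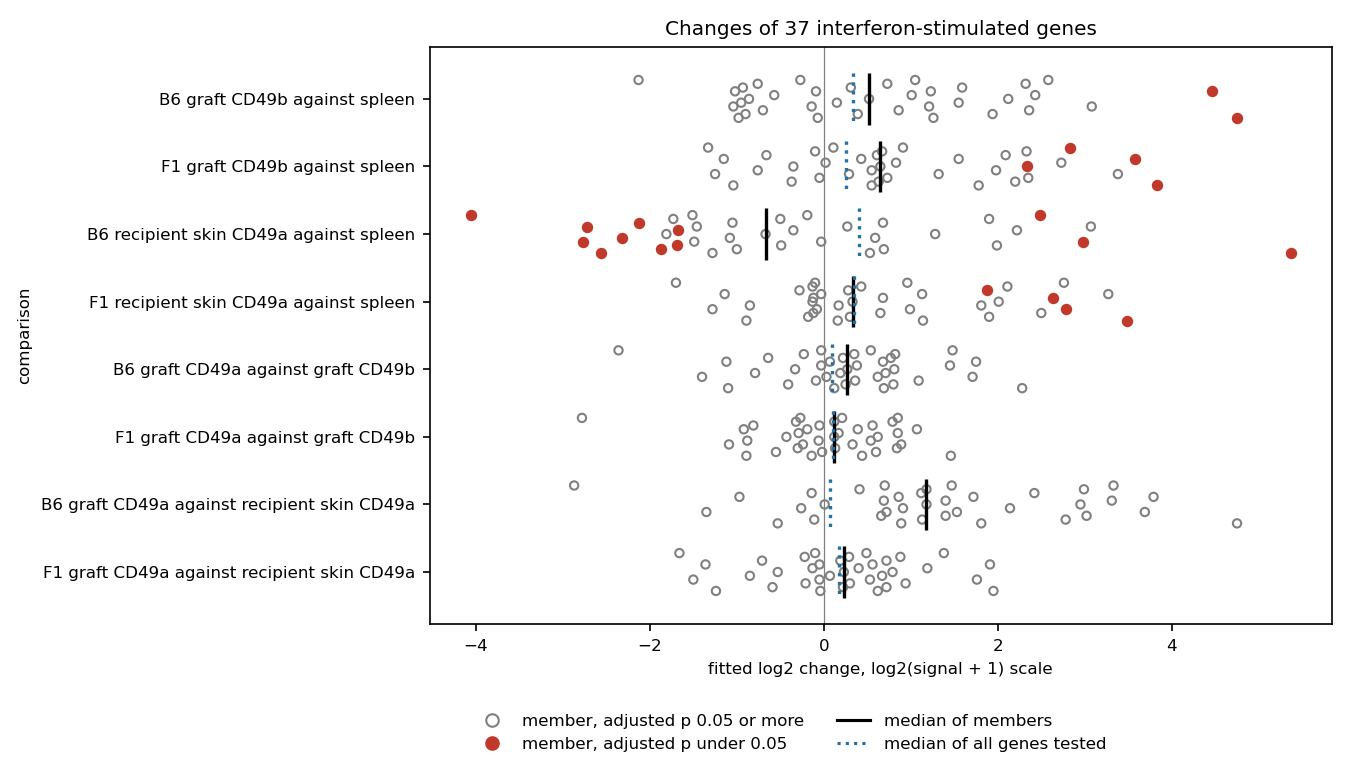
Fitted log2 change of each gene in 8 comparisons (open circles did not pass, filled ones had an adjusted p under 0.05), with the median of the 37 genes (line) and of all genes tested (dotted line). The B6 recipient skin median lies at -0.67 and changes sign, to 0.98, on the leukocyte scale, where the all-gene median moves from 0.40 to 2.05. The median of B6 graft against recipient skin CD49a+ cells lies at 1.18.

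Between CD49a+ and CD49b+ cells of the graft no gene of the 37 passed. In each model the count was 0 of 37 (limma), and 0% of all 15201 genes tested passed; 3 of the 37 in B6 and 1 in F1 had an unadjusted p under 0.05. The smallest p in B6 was that of Parp9, a partner of the ubiquitin ligase DTX3L, at 43, 61.4 and 88.3 in CD49a+ and 12.4, 29.9 and 14.4 in CD49b+ cells, without overlap (adjusted p = 1). In F1 it was Dhx58 (LGP2), the regulator of the RNA sensors, at 8.65, 9.37 and 0 in CD49a+ and 72.8, 19 and 20.8 in CD49b+ cells, also without overlap (adjusted p = 1). The medians of the 37 genes were 0.27 in B6 and 0.12 in F1, beside 0.09 and 0.11 for all genes.

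The graft and the recipient's own skin could be compared within CD49a+ cells, sorted the same way from both. In B6, 30 of 37 genes had positive changes, graft above recipient skin, with a median of 1.18 beside 0.07 for all genes, of which 52.5 percent were positive. None of the 37 passed (limma, 0% of all genes called), and 10 had an unadjusted p under 0.05, a share not counted for all genes. Cxcl10 was at 212, 37.9 and 62.7 in graft and 0, 7.2 and 2.27 in recipient skin, 4.75 ± 1.13 log2 units apart (adjusted p = 0.402). Bst2 was at 48.9, 54.2 and 62.7 against 0, 33.8 and 4.19 (adjusted p = 0.56), and Irf7 at 452, 74.7 and 40.1 against 0, 39.1 and 12.3 (adjusted p = 0.565). All 3 genes had every graft library above every skin library, as did 10 of the 37 in all, while 0 had the reverse. Of all 15201 genes tested, 4.09% were higher and 3.12% lower without overlap.

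The summary level moved the same way. The median log2(signal + 1) over the 37 genes was 5.40, 4.59 and 4.65 in B6 graft CD49a libraries and 4.04, 3.84 and 3.77 in recipient skin, without overlap. Rsad2 went against this, at 15.1, 14.8 and 5.47 in graft and 4.68, 260 and 436 in recipient skin. The median of the 37 relative to all genes was 1.11 on the deposited values, 1.10 on the leukocyte scale and 1.09 after quantile normalization. Between the only libraries of these groups that were not low in leukocyte genes, number 2 of each, it was 1.57, a difference of 1 library from 1 other. Graft libraries had more macrophage signal (440 to 1388 against 151 to 301, 9 of 12 markers at a mean of at least 10 in the graft) and reached higher keratinocyte (47.7 to 3794 against 33.5 to 534, 7 of 10) and fibroblast sums (22 to 4737 against 49.4 to 223, 8 of 9); their part was not tested. In F1 the same comparison gave 0 calls of 37 (0% of all genes), 1 unadjusted p under 0.05, that of Ifi35, and a median of 0.23 beside 0.17. Without the low-leukocyte libraries, which left F1 recipient skin library 1 alone, that median was -0.77 beside 0.07 for all genes. F1 graft CD49a library 2 had neutrophil markers summing to 14272, against 720 and 419 in libraries 1 and 3. Its macrophage markers summed to 2707, against 748 and 375. It held the highest values of Ifit2, Isg15 and Isg20 and enters both F1 comparisons of graft CD49a+ cells. The part of these cells was not tested.

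**Figure D4:**
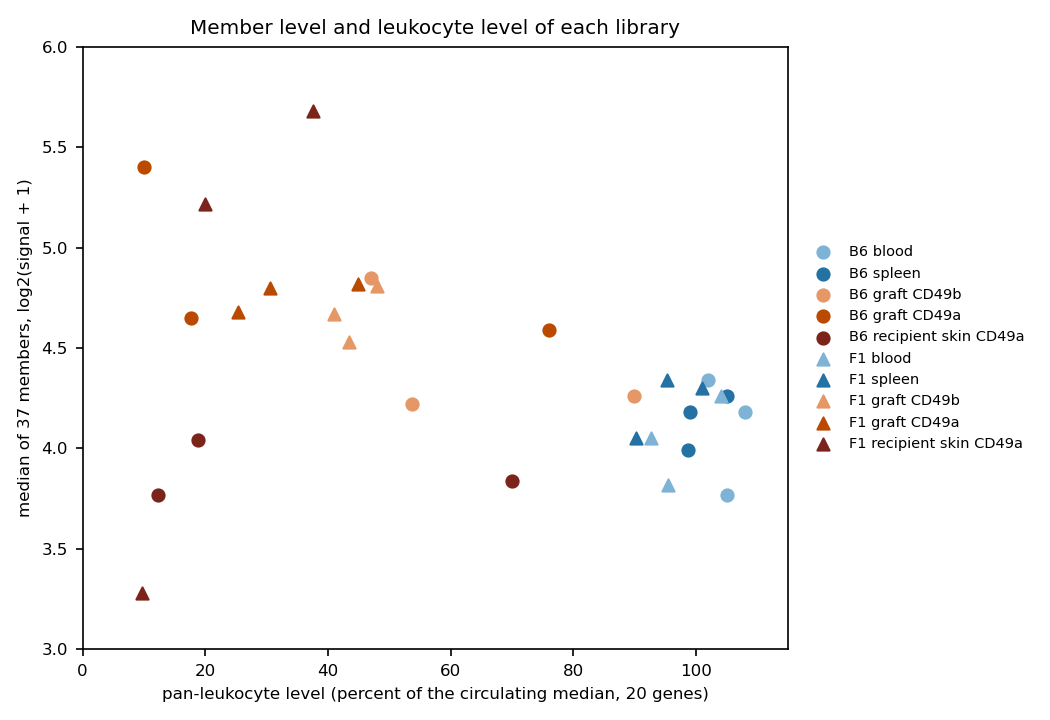
Points are libraries: median log2(signal + 1) over the 37 genes in each library against its pan-leukocyte level as a percentage of the circulating median. Circulating libraries sit at 3.77 to 4.34; B6 graft CD49a libraries (4.59 to 5.40) and B6 recipient skin libraries (3.77 to 4.04) do not overlap; library 2 of each, at 76 and 70 percent, is the 1 library of its group not among the low-leukocyte libraries.

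Few differences passed among circulating cells. Of 25 genes that could be tested in the 12 circulating libraries, 0 passed between spleen and blood in either model (limma), with 1 unadjusted p under 0.05 in B6 and 2 in F1; 0% and 0.399% of 9515 genes passed. The B6 gene was Sp100, at 295 ± 3.08 in spleen and 356 ± 26.5 in blood. The F1 genes were Eif2ak2, at 51.1 ± 16.4 and 187 ± 114, and Zbp1, at 48.7 ± 7.47 and 30.6 ± 6.74. Between the models, Epsti1 was lower in F1 blood (98.7, 136 and 104) than in B6 blood (205, 168 and 185), without overlap. It fell by 0.73 ± 0.15 log2 units (adjusted p = 0.0285, limma), the 1 gene of 25 called, where 2.85% of all genes were; the call was lost in 5 of 6 fits that left out 1 library and on the leukocyte scale (adjusted p from 0.0139 to 0.125 over the 6). In spleen Epsti1 was at 125 ± 10.7 in F1 and 176 ± 23.4 in B6 (adjusted p = 0.204); 0 of 25 genes passed there, 3 had an unadjusted p under 0.05, and 1.56% of all genes passed.

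By role, the OAS family had positive changes against spleen in most comparisons. Its 5 genes had a median change against spleen of 1.59 in B6 and 2.33 in F1 graft CD49b+ cells, all 5 positive in both, where 58.5 and 56 percent of all genes were positive; after quantile normalization 4 of 5 were positive in B6 (median 0.47) and 5 of 5 in F1 (median 1.19). In recipient skin 3 of 5 were positive in B6 (median 1.28) and 5 of 5 in F1 (median 1.81), where 56.7 and 57.3 percent of all genes were. B6 graft libraries had Oas3 at 276, 7.76 and 30, and F1 graft libraries at 22.1, 443 and 29.3. Oas2 was at 2.14, 0.955 and 21.3 for B6 and at 7.31, 4.08 and 3.32 for F1. Oasl1 was at 5.51, 16.7 and 6.82 in B6 graft libraries and 7.2, 67.2 and 18.1 in F1. Single libraries again set the top of these ranges, and 0 of the 5 genes passed in graft CD49b+ cells of either model. In recipient skin 1 of the 5 passed in B6, Oas1a, which fell (adjusted p = 0.00671, limma), and 0 passed in F1. The comparisons of graft and of recipient skin with spleen share the spleen libraries. Among the IFIT genes, Ifit3 had values of 143, 12 and 14.5 for B6 graft libraries, against 7.22, 32.3 and 0 for F1, whereas Ifit2 was at 9.96, 8.74 and 10.4 and 4.96, 10.5 and 8.43, below every spleen library of its model (adjusted p = 0.351 in B6 and 0.175 in F1, limma).

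The 6 transcription factors and nuclear regulators did not follow these families. Their median change against spleen was -0.91 in B6 and -0.38 in F1 graft CD49b+ cells, and -1.34 and -0.20 in recipient skin of B6 and F1. The medians of all genes were 0.33, 0.26, 0.40 and 0.35. On the leukocyte scale the regulators had -0.21, 0.71, 0.61 and 2.05, beside 0.90, 1.16, 2.05 and 2.25 for all genes. Their sign turned in all but B6 graft, but they stayed below the all-gene median in all 4 comparisons on both scales. Sp100 was at 109, 191 and 175 in B6 graft and 291, 297 and 297 in B6 spleen, without overlap (adjusted p = 0.23). Grouped by the promoter match, the 13 genes with an ISRE had median changes of 1.94 in B6 and 1.32 in F1 graft CD49b+ cells against spleen and of 0.59 and 1.81 in recipient skin. The 15 genes with a promoter but no match had 0.39, 0.55, -1.05 and -0.03, and the 9 without a promoter in the table -0.70, 0.11, -1.73 and 0.28. On the leukocyte scale the ISRE group had 2.18 to 3.33 over the 4 comparisons, beside 0.90 to 2.25 for all genes. The group with no match had 0.91 to 2.16 and the group without a promoter -0.03 to 2.34, so several signs turn with the scale. In B6 recipient skin the ISRE median was 2.18 beside 2.05 for all genes on that scale, and -0.06 beside -0.05 after quantile normalization. This grouping was made with the values known, so it is a description and was not tested.

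Of the 41 genes of the interferon pathway, 34 could be tested against spleen. In graft CD49b+ cells 1 rose and 0 fell in B6, where 4.07% of all genes were called, and 2 rose and 4 fell in F1, where 12.2% were. In recipient skin 4 rose and 14 fell in B6, beside 28.8% of all genes, and 2 rose and 5 fell in F1, beside 15.7%. Tyk2 was at 38.8 ± 15 in F1 graft and 227 ± 21.6 in F1 spleen (fell by 2.59 ± 0.60 log2 units, adjusted p = 0.00636, limma) and Jak1 at 366 ± 74.2 and 951 ± 94.4 (fell by 1.39 ± 0.44, adjusted p = 0.0381). Ifnar2, a chain of the type I receptor, fell by 1.70 ± 0.56 in the same cells (adjusted p = 0.0442), and the SUMO ligase gene Pias1 by 1.47 ± 0.43 (adjusted p = 0.0254). The pan-leukocyte level was itself 1.20, 1.29 and 1.06 log2 units below the circulating median in F1 graft CD49b libraries 1 to 3. Its part in these 4 falls was not tested. The endosomal RNA sensors Tlr3 and Tlr7 rose there, from 0.196 ± 0.339 to 12 ± 5.39 (adjusted p = 0.00628) and from 0.134 ± 0.231 to 13.6 ± 8.03 (adjusted p = 0.0126). Socs3, a feedback inhibitor of cytokine receptors, rose in B6 graft CD49b+ cells from 25.1 ± 16.5 to 389 ± 185 (adjusted p = 0.0302).

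Ifngr1, a chain of the interferon-gamma receptor, fell in B6 recipient skin by 3.32 ± 0.89 log2 units (adjusted p = 0.00833, limma), from 1074, 987 and 1040 in spleen to 14.4, 888 and 81 in skin libraries 1 to 3. The low values were in libraries 1 and 3, both low in leukocyte genes, while library 2 was near spleen. Pias1 was low in all 3 skin libraries, at 7.03, 13.3 and 14.6 against 54.3 to 62.3 in spleen (adjusted p = 6.44e-04). The kinase genes Jak1 (326 ± 139 against 1100 ± 127, adjusted p = 0.00421) and Tyk2 (56.1 ± 43.5 against 261 ± 13.6, adjusted p = 0.00408) fell too. Others that fell there were the receptor chains Ifnar2 and Il10rb, the factors Irf2, Irf3 and Irf8, the adaptors Myd88 and Ticam1, the kinase Tbk1 and the phosphatase Ptpn2. The nucleic acid sensors Tlr3, Tlr7, Cgas and Ifi204 rose, Cgas from 8.87 ± 2.25 to 33.9 ± 6.8 (adjusted p = 0.0206). In F1 recipient skin Jak1, Tyk2, Irf3, Ticam1 and the adaptor Sting1 fell, Jak1 to 163, 181 and 155 from 886 to 1059 (adjusted p = 8.37e-04). Tlr3 rose there, as did Ifngr2, the other chain of the interferon-gamma receptor, to 147, 14.5 and 37.9 from 1.59 to 3.53 (adjusted p = 0.00505). In recipient skin the pan-leukocyte level was 12.3 to 70 percent of the circulating median in B6 libraries and 9.73 to 37.6 in F1. Its part in the falls of pathway genes was not tested. For Ifnar1, the other chain of the type I receptor, the graft CD49b+ mean was 263 ± 95.5 against 181 ± 13.8 in spleen for the B6 model (adjusted p = 0.621). The F1 model gave 194 ± 20.9 against 178 ± 18 (adjusted p = 0.908). Irf1, a factor induced by both interferons, gave 354 ± 209 against 153 ± 19.3 for B6 (adjusted p = 0.522) and 97.6 ± 57.3 against 264 ± 134 for F1 (adjusted p = 0.32). Among the skin groups 0 of 33 pathway genes passed in the 5 comparisons. Between the models, Ifng, the gene of interferon-gamma, was at 9.63 ± 4.58 in F1 and 33.2 ± 12 in B6 blood and fell by 1.74 ± 0.37 (adjusted p = 0.0304), and Irf8 was at 391 ± 41.1 in F1 and 630 ± 30.6 in B6 spleen and fell by 0.69 ± 0.14 (adjusted p = 0.0365). These were the 2 calls among 31 pathway genes tested in the circulating libraries.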

How the data were processed

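RNA was sequenced from sorted NKp46-GFP+ cells of skin-grafted mice, in 30 libraries of 10 groups, grouped by their labels. The deposited values are a normalized signal per gene that the authors made with Salmon and DESeq2 on GRCm38 (mm10), per the submitters' processing notes; their versions, the transcript annotation and any filtering: not given in the sources used here. The table held 30616 entries, of which 30587 were used: 1 had no name, 27 were gene names turned into dates, and 1 held a text value. A remark in 1 cell was removed, 3 listed genes were found under other symbols, and 2 unnamed numeric columns were not used. Only 16.6 to 27.1 percent of values were whole multiples of a step (tolerance 0.1), so reads could not be recovered, depth is unknown and no count test was run.

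Values were tested as log2(signal + 1) with limma 3.58.1 (R 4.3.3), with a mean trend and robust moderation, Benjamini-Hochberg adjustment over all genes tested and a threshold of 0.05. Genes entered a fit if 3 or more of its libraries reached a signal of 10. Comparisons with spleen used all 30 libraries (16045 genes), comparisons among skin groups the 18 skin libraries (15201 genes), and comparisons among blood and spleen the 12 circulating ones (9515 genes). The test was checked on simulated data. Levels per kilobase used GENCODE M21 exon lengths on GRCm38, and tables and figures Python 3.11.15, numpy 2.4.6, pandas 2.3.3 and matplotlib 3.10.9. The main fits did not pair samples by library number. Of 60 correlations between same-numbered libraries' deviations from their group means, from -0.27 to 0.411, 6 were over 0.1; all 3 were so in B6 graft against recipient skin CD49a+ cells (0.137, 0.403 and 0.150), whose libraries 1 and 3 are low in leukocyte genes in both groups.

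The genes named are, per comparison, those past the threshold and, with fewer than 3 of those, in most cases 1 to 3 with the smallest p. For levels they are the 12 genes with the highest mean and the OAS, IFIT and RIG-I-like receptor genes. Pathway genes are named where they passed, with a few receptor and regulator genes named in any case, and 1 pathway gene is not reported here; single other genes were chosen after their values were seen. The members and lists were chosen with earlier results of these data known. Alternatives were a pseudocount of 5, no filter, a filter of 50, quantile normalization, scaling to 20 pan-leukocyte genes, a replicate block (1 form chosen after seeing the data), other libraries in the fit, and leaving out single or low-leukocyte libraries.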

Additional observations from a re-analysis of the deposited data

Results flagged for a closer look

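Usp18, the ISG15 protease and feedback inhibitor of the type I interferon receptor, had changes of opposite sign in graft CD49b+ cells of the 2 models, neither of which passed. In B6 it was at 0, 6.06 and 4.44 in the graft and 14.9, 18.2 and 9.5 in spleen, a log2 change of -2.13 (adjusted p = 0.155, limma). In F1 it was at 51.6, 31.2 and 27.1 in the graft and 10.6, 2.92 and 12.5 in spleen, a log2 change of 2.09 (adjusted p = 0.115). Every B6 graft library was below every B6 spleen library, and every F1 graft library above every F1 spleen library. The difference between the changes was 4.22 ± 1.23 (SE) log2 units, with an unadjusted p of 0.002 and an adjusted p of 1 over all genes (limma), so it did not pass. The models differ in strain, day, graft genotype and copies of iCre, which cannot be told apart.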

How the results depend on the processing

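The count of the 37 genes called depended on the settings wherever any gene was called. For B6 graft CD49b+ cells against spleen the count of 2 became 1 of 21 tested with a filter of 50 (6.54% of all genes called). With only the compared groups in the fit it became 1 of 29 (3.2%). It became 0 after quantile normalization (0.873%), 0 on the leukocyte scale and 10 (8 higher, 2 lower) without the 6 low-leukocyte libraries. That last setting left the same 6 libraries compared and changed the estimate of spread and the genes tested; 17.5% of all genes were then called, in place of 4.07%, and 0.692% on the leukocyte scale. For F1 graft CD49b+ cells the count of 4 became 1 with a pseudocount of 5 (7.27% of all genes) and 1 after quantile normalization (4.95%). It became 2 of 21 tested with a filter of 50 (14.7%) and 7 of 30 with only the compared groups (28.2%). Without low-leukocyte libraries it became 12 (26.9%). For B6 recipient skin the count of 12 became 6 of 21 tested with a filter of 50 (35.5% of all genes). It became 2 of 25 with only the compared groups (10.9%). Stat2 changed sign to 0.19 on the leukocyte scale (adjusted p = 0.878, limma), where the median of all genes was 2.05. For F1 recipient skin the count of 4 became 1 after quantile normalization (8.32% of all genes) and 24 on the leukocyte scale (41.5%). With only the compared groups it became 1 of 27 tested (10.7%). For B6 graft CD49a+ cells against recipient skin the count of 0 became 1 with all 30 libraries in the fit (0.224% of all genes). Without low-leukocyte libraries 1 library was left in B6 graft CD49a+ cells and in recipient skin of each model, so no counts are given there. For F1 against B6 blood the count of 1 became 0 without a filter (0.778% of all genes), 0 on the leukocyte scale (2.27%) and 0 with all libraries in the fit (0.162%).

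Leaving out 1 library at a time gave 0 to 4 calls in B6 graft CD49b+ cells. There were 0 without spleen library 1 or graft library 3 (0.537% and 0.391% of all genes called). There were 4 without graft library 2 (12.6%). In F1 graft CD49b+ cells it gave 1 without spleen library 3 or graft library 2 (5.4% and 4.37%) and 3 without graft library 1 (7.95%). In B6 recipient skin it gave 4 without spleen library 1 (17.3%) and up to 16, without skin library 2 (43%). In F1 recipient skin it gave 1 without skin library 2 (7.24%) and up to 8, without skin library 3 (28.2%). In each of these comparisons the highest count came in the fit with the largest share of all genes called. B6 graft against recipient skin CD49a+ cells gave 0 to 1 (1 without skin library 2, 0.378% of all genes). F1 against B6 blood also gave 0 to 1 (1 only without F1 blood library 2, 2.6%). The causes were not tested. With the replicate block the counts were 2 and 3 in B6 and F1 graft CD49b+ cells (3.63% and 11.7% of all genes). They were 11 and 4 in recipient skin (28.3% and 15.4%) and 1 in F1 against B6 blood (3.13%). The Isg15 call in F1 graft CD49b+ cells was lost. In B6 graft against recipient skin CD49a+ cells, the 1 comparison whose same-numbered libraries all correlated, the replicate block gave 0 calls and a median of 1.18, and with only the 6 compared libraries in the fit, an alternative chosen after seeing the data, 0 calls and a median of 1.13. Depth is unknown, and log2(signal + 1) limits what can be seen of genes near 0.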

Other observations

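Other genes that interferon induces, listed separately from the 37, were also measured. Of 37 such genes tested against spleen, 2 rose and 1 fell in B6 graft CD49b+ cells, where 4.07% of all genes were called, and 2 rose and 0 fell in F1, where 12.2% were. In B6 recipient skin 4 rose and 11 fell, beside 28.8% of all genes, and in F1 recipient skin 4 rose and 2 fell, beside 15.7%. The genes described here were chosen after their values were seen. Cd274 (PD-L1), the ligand of the inhibitory receptor PD-1, rose in all 4 of these comparisons, which share the spleen libraries within a model. It was at 99 ± 24.2 in B6 graft CD49b+ cells, 88.8 ± 61.5 in B6 recipient skin and 19.6 ± 5.61 in B6 spleen (mean ± SD, n = 3 libraries; adjusted p = 0.0126 and 0.00642, limma). In F1 it was at 70.4 ± 14.5, 52 ± 19 and 12.6 ± 2.99 (adjusted p = 0.00305 and 0.0107). Cxcl9, a chemokine induced by interferon-gamma, rose in B6 graft CD49b+ cells from 0.176 ± 0.305 to 26.5 ± 22.3 (adjusted p = 0.0128).

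Psmb8, an immunoproteasome subunit, fell in B6 recipient skin, where it was at 76.7 ± 93.2 in skin and 475 ± 35.3 in spleen (adjusted p = 5.42e-04, limma), and Tap1, a subunit of the peptide transporter, at 49.6 ± 36 and 271 ± 30.3 (adjusted p = 7.71e-04). Psmb8 was also lower in F1 recipient skin, at 104 ± 65.7 against 440 ± 25.3 (adjusted p = 0.00949). The pan-leukocyte level of these skin libraries was 9.73 to 70 percent of the circulating median, and its part in these changes was not tested.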
